A study of Mus musculus with 16 samples.

Results

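The genes of mouse chromosome 16 that surround Mir155 were followed in cultured macrophages with and without miR-155. Members were chosen by position: every gene with a probe at 69.7 to 99.7 Mb of chromosome 16 (mm9, positions from the array annotation) that was well above background on both arrays of at least 1 group. Each gene was read through its probe of highest mean signal. The rule left out 12 genes by name, and 106 genes remained of the 17666 genes tested on the arrays. The window held 322 probes, of which 180 met the detection rule, and a further 101 genes of the window had no probe that met it. Of the 106 members, 81 were detected in all 8 groups, 14 in 2 to 7 groups and 11 in 1 group. A reference table named 77 of them, and 29 keep the name given on the array. The choice rests on position, on detection and on the 12 names, and it was made with earlier results of these data known. Both genes of the window that were called for genotype (below) are among the 12. The count of members called for genotype is therefore partly set by the rule. A member detected in 1 group had to be bright there.

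The cells were total bone marrow of male C57BL/6Jax mice, either wild type (WT) or miR-155 knockout (KO), grown for 9 days in medium with 10 ng/mL M-CSF, the cytokine that drives macrophage growth. The adherent macrophages were lysed unstimulated (0 h) or after 6, 12 or 24 h in 100 ng/mL LPS, a bacterial cell wall component sensed by Toll-like receptor 4. Each of the 8 groups had 2 single-colour Agilent arrays of total RNA, 16 in all. The labels do not say whether replicate arrays came from separate cultures or mice, so p-values measure only the spread between these samples, which may be technical. They do not describe the knockout allele or its strain history either.

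Mir155 encodes a microRNA that is induced by inflammatory signals in macrophages and lowers the output of many messenger RNAs that pair with its seed. The gene lies inside a non-coding host transcript, on the segment of mouse chromosome 16 that corresponds to human chromosome 21. Around it lie genes of very different function: deubiquitinases and chaperones, transcription and chromatin factors, receptors for interferons, adhesion molecules, secreted proteases and metabolic enzymes. In a knockout mouse these neighbours are the genes that travel with the altered locus. The question of the comparison by position was therefore whether genes at different distances from Mir155 differed between KO and WT.

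The deleted microRNA is shown first because it fixes the middle of the window. RefSeq places both mature arms on the plus strand of chromosome 16 in GRCm38.p6, the 5p arm at chr16:84714143-84714165 and the 3p arm at chr16:84714182-84714202. Capitals mark the seed, bases 2 to 8, which pairs with target messenger RNAs.
mmu-miR-155-5p: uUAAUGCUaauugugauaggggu
mmu-miR-155-3p: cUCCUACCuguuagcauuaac

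The arrays carried no probe named for Mir155 or its host transcript, so the knockout could not be checked on them, and distances were taken from 84.7 Mb, the middle of the window. All 16 arrays were of similar quality: 56.0 to 67.6% of probes were well above background, no spot was saturated, and replicate arrays correlated at 0.955 to 0.973 over genes. All 8 macrophage markers fixed for the check (Csf1r, Adgre1, Cd68, Itgam, Lyz2, Mertk, Fcgr1 and Cd14) were well above background on all 16 arrays. Their summed level on the log2 scale, relative to each array's 75th percentile, was 9.72 to 11.50 in WT and 9.83 to 11.44 in KO arrays. The summed neutrophil level was -0.53 to 5.63 in WT and -0.27 to 4.97 in KO arrays, the stromal level -0.23 to 1.43 and -0.48 to 1.49. Elane, Ebf1, Ncr1, Alas2 and Pdgfra were well above background in no group, and no marker of any list passed the test for genotype.

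By genotype, no member read by its brightest probe passed the test between KO and WT macrophages. Of the 12 genes of the window that the rule left out, 2 passed: Mrpl39, a mitochondrial ribosomal protein at 84.72 Mb, was lower in KO (-2.01 ± 0.16, adjusted p = 0.00139 by limma) and Cbr1, a carbonyl reductase, was higher (2.68 ± 0.30, adjusted p = 0.0184). With them the window had 2 called genes of 118, or 1.69%. Among members, Adamts1 had the largest positive difference, Pigp, Usp25 and the transcript A930006K02Rik lay lower in KO on every pair of arrays, and dimmer probes of Eva1c were higher in KO. Values are log2 signal minus the array's 75th percentile, so that 0 is the level of the array's upper quartile and 1 unit is 2-fold. No member of 106 passed an adjusted p of 0.05 (limma, Benjamini-Hochberg over all 17666 genes) for KO minus WT averaged over the 4 times, where 0.017% of all genes did. None passed at any single time, where 0.0113% of all genes did. With the replicate number as a block, which pairs arrays of 1 scan session, the count over the 4 times was again 0 of 106, against 0.0226% of all genes. Without adjustment, 8 of 106 members had p under 0.05 for the averaged difference, which is 7.55%. The share was 1.36% over all genes (240 of 17666) and 1.97% over the 456 tested genes of chromosome 16 outside the window (9 genes). With the block, 15 members had an unadjusted p under 0.05, and the share over all genes with the block is not given here. Counted by probe with the block, it was 13% of member probes and 5.19% of all probes. At single times the unadjusted counts were 2 members at 0 h (1.89%, all genes 0.243%), 4 at 6 h (3.77%, all genes 0.832%), 1 at 12 h (0.943%, all genes 0.945%) and 2 at 24 h (1.89%, all genes 1.21%). The median size of the averaged difference was 0.13 in members, 0.11 in all genes and 0.12 in the rest of chromosome 16.

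**Figure D1:**
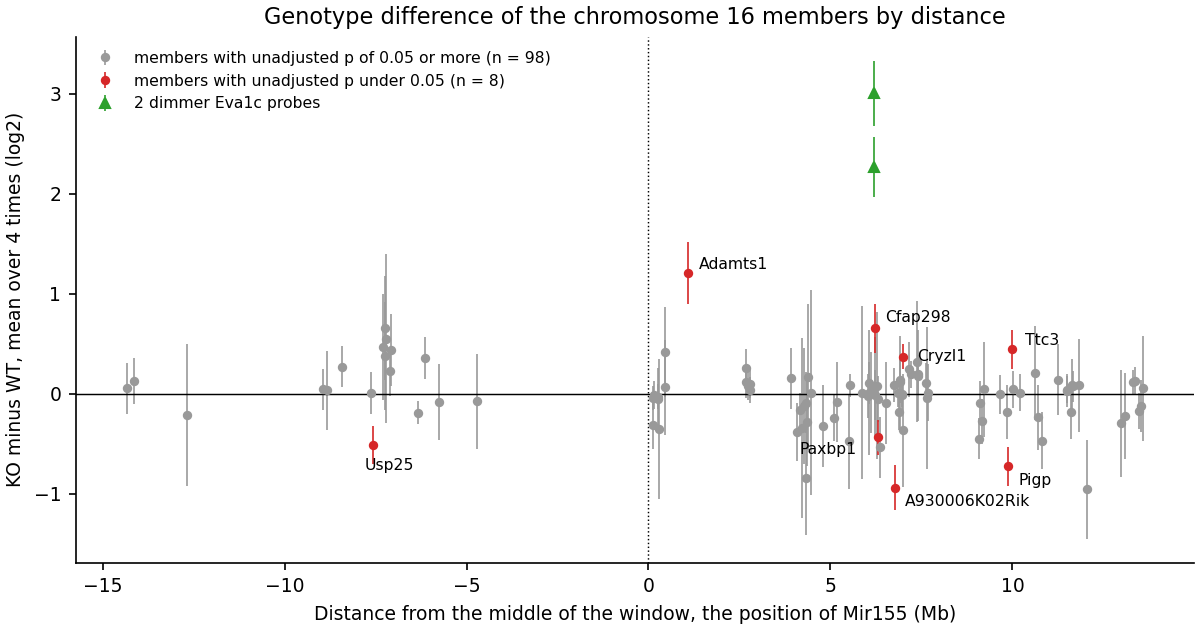
KO minus WT averaged over 4 times (log2, y axis, bars are standard errors) for the 106 members against distance from the middle of the window in Mb (x axis), with the 2 dimmer Eva1c probes as triangles. The members lie between -0.95 and 1.21 on both sides of 0, while the Eva1c probes stand at 2.27 and 3.005.

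The members nearest to Mir155 had genotype differences with intervals that include 0, while Mrpl39, which lies nearer than any of them and is no member, was lower in KO (above). On the side of higher coordinates, the nearest member was Jam2, a junctional adhesion molecule of endothelial cells and leukocyte contacts, at 84.82 Mb. KO minus WT for Jam2 was -0.31 ± 0.24 (SE; 95% interval -0.85 to 0.23), and KO was the lower array in all 8 pairs of same-numbered arrays. Next came Atp5j, a subunit of mitochondrial ATP synthase, with -0.05 (interval -0.31 to 0.22), and Gabpa, an ETS-family transcription factor, with -0.01 (-0.33 to 0.31). The transcript AK132225 had -0.05 (-0.72 to 0.62) and App, the amyloid precursor protein, -0.03 (-0.31 to 0.25).

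On the side of lower coordinates the genes lie further off. The unnamed transcript 1700066C05Rik had -0.07 (-1.13 to 0.98) and Tmprss15, the intestinal protease enteropeptidase, -0.08 (-0.92 to 0.76), both with wide intervals, and Tmprss15 was well above background in 2 groups only. D16Ertd472e at 78.55 Mb had 0.36 (-0.11 to 0.83), and the antiproliferative gene Btg3 at 78.36 Mb had -0.19 (-0.45 to 0.07). The transcript 8030498J20Rik had 0.44 (-0.36 to 1.24). None of these 10 members passed the test between genotypes.

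Along the window, the median difference stayed near 0 in 5 of 6 stretches of 5 Mb. It was 0.06 in 3 members at 69.7 to 74.7 Mb, -0.07 in the single member at 79.7 to 84.7 Mb, -0.03 in 25 members at 84.7 to 89.7 Mb, 0.01 in 43 members at 89.7 to 94.7 Mb and 0.04 in 20 members at 94.7 to 99.7 Mb. At 74.7 to 79.7 Mb it was 0.25 over 14 members, 11 of them above 0. That median came from a run of transcripts within 77.2 to 79.7 Mb, where 9 members had a median of 0.38. Among them were the microRNA host transcript Mir99ahg (0.22), D130020G16Rik (0.66), AK087619 (0.55), AK076276 (0.47) and AK034975 (0.38). None of these 5 had an unadjusted p under 0.05. Their probes lie close together, from base 77403055 (AK076276) to base 77598283 (Mir99ahg), and whether they report separate genes was not tested. AK076276 (-0.34 and -0.69) and AK034975 (-0.32 and -0.64) were lower in KO in both pairs at 0 h, and higher at 6 and 12 h. In the same run 8030498J20Rik had -0.40 and -0.54 at 0 h and was higher at 12 and 24 h. As a description over 106 members that share the arrays, the size of the difference correlated with distance from the middle at r = -0.06 (Spearman 0.02), and the signed difference with position at r = -0.23 (Spearman -0.13). The last probe in the window lay at 98.2878 Mb, and the nearest tested gene before its lower edge, Chmp2b at 65.54 Mb, had a difference of -0.15 ± 0.15.

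Of the 8 members with an unadjusted p under 0.05, 4 were higher and 4 lower in KO on average, and they were scattered from 77.12 to 94.69 Mb. All 8 had an adjusted p above 0.99 (limma), and with the replicate block adjusted p ranged from 0.381 for Adamts1 to 0.876. They were picked out after their values were seen. Usp25, Adamts1 and Pigp had been set as markers of the group, but also with earlier results of these data known. Between them lie genes with an averaged difference within 0.02 of 0: Synj1 (-0.01), Son (-0.01), Donson (-0.00) and Ifngr2 (0.01). Gart had 0.14 and Tmem50b -0.18. Some of these averages join opposite signs. In the pairs of arrays Synj1 had 0.14 and 0.32 at 0 h and -0.26 and -0.41 at 24 h. Son had 0.21 and 0.19, then -0.03 and -0.27, and Ifngr2 0.26 and 0.26, then -0.16 and -0.09.

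Adamts1, a secreted metalloproteinase that cuts proteoglycans of the extracellular matrix, lies at 85.80 Mb. In WT its log2 levels were -3.44 and -1.79 at 0 h, -4.43 and -3.97 at 6 h, -4.95 and -5.08 at 12 h, and -6.00 and -4.96 at 24 h. In KO they were -1.49 and 0.24, -3.05 and -2.77, -4.53 and -4.36, and -4.66 and -4.35 at the same times. The KO arrays were above the WT arrays without overlap at each of the 4 times, and in all 8 pairs. The averaged difference was 1.21 ± 0.31 (interval 0.51 to 1.90), 1.27 in the first scan session and 1.14 in the second, and it was 1.99 ± 0.63 at 0 h. A second Adamts1 probe was well above background on 3 arrays only, all at 0 h, where it read -6.07 and -5.14 in WT (1 of 2 above background) and -5.44 and -3.01 in KO. Its difference at 0 h was 1.37 ± 0.67. Of 6 tested markers of stromal cells, a type known to make Adamts1, none passed for genotype. Their averaged KO minus WT ran from -0.39 to 0.68 with a median of -0.30, and their part in the Adamts1 difference was not tested.

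Both Adamts1 probes lie on the minus strand of chromosome 16 (mm9), and the first 30 of their 60 bases are printed because the probes gave different sizes. The probe read for the gene spans chr16:85795044-85795103 and the other spans chr16:85796191-85796250.
A_52_P489295: gaaagagctcctgatttcttcttacaccat
A_52_P213932: ttctggctattagagccgctgatggtacct

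Pigp, at 94.59 Mb, encodes a subunit of the enzyme that begins the synthesis of glycosylphosphatidylinositol anchors, the lipid tails of proteins such as CD14. WT levels were 2.28 and 2.22 at 0 h, 1.53 and 1.75 at 6 h, 1.32 and 0.92 at 12 h, and 1.97 and 1.17 at 24 h. KO levels were 1.77 and 1.84, 0.83 and 0.83, 0.35 and 0.20, and 1.37 and 0.17. KO was the lower array in all 8 pairs, and the groups overlapped only at 24 h. The averaged difference was -0.72 ± 0.19 (interval -1.16 to -0.29), and it was -0.69 and -0.75 in the first and second scan session.

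The transcript A930006K02Rik at 91.47 Mb gave the other low values in KO. In WT its levels were -1.26 and -1.67 at 0 h, -0.92 and -1.72 at 6 h, -1.31 and -0.80 at 12 h, and -1.66 and -0.997 at 24 h. In KO they were -1.61 and -2.15, -1.80 and -3.05, -2.20 and -1.92, and -2.49 and -2.63. The groups overlapped at 0 h and not at 6, 12 or 24 h. The averaged difference was -0.94 ± 0.23 (interval -1.44 to -0.43), and a second probe gave -1.17 ± 0.35.

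Usp25, a deubiquitinase that acts on adaptors of Toll-like receptor and interleukin signalling, lies at 77.12 Mb. WT levels were 1.70 and 1.28 at 0 h, 4.89 and 4.98 at 6 h, 4.42 and 4.77 at 12 h, and 3.08 and 3.85 at 24 h. KO levels were 1.38 and 1.11, 4.36 and 4.73, 3.68 and 4.35, and 2.19 and 3.06. KO was lower in all 8 pairs, and WT and KO arrays overlapped at 0 h only. The averaged difference was -0.51 ± 0.19 (interval -0.94 to -0.08), and a second probe gave -0.59 ± 0.27.

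The remaining 4 members had differences of 0.37 to 0.66 in size. Cryzl1, a quinone oxidoreductase-like enzyme at 91.69 Mb, was higher in KO in 8 of 8 pairs by 0.37 ± 0.13, with 0.37 in each scan session. Cfap298, a cilium assembly factor at 90.93 Mb, was higher in 7 of 8 pairs by 0.66 ± 0.24. Paxbp1, which links PAX factors to histone methylation, had a difference of -0.44 ± 0.18 and was lower in KO in all 8 pairs, but -0.14 by its other probe. Ttc3, an E3 ubiquitin ligase, had 0.44 ± 0.19, made up of 0.09 in the first scan session and 0.80 in the second.

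**Figure D2:**
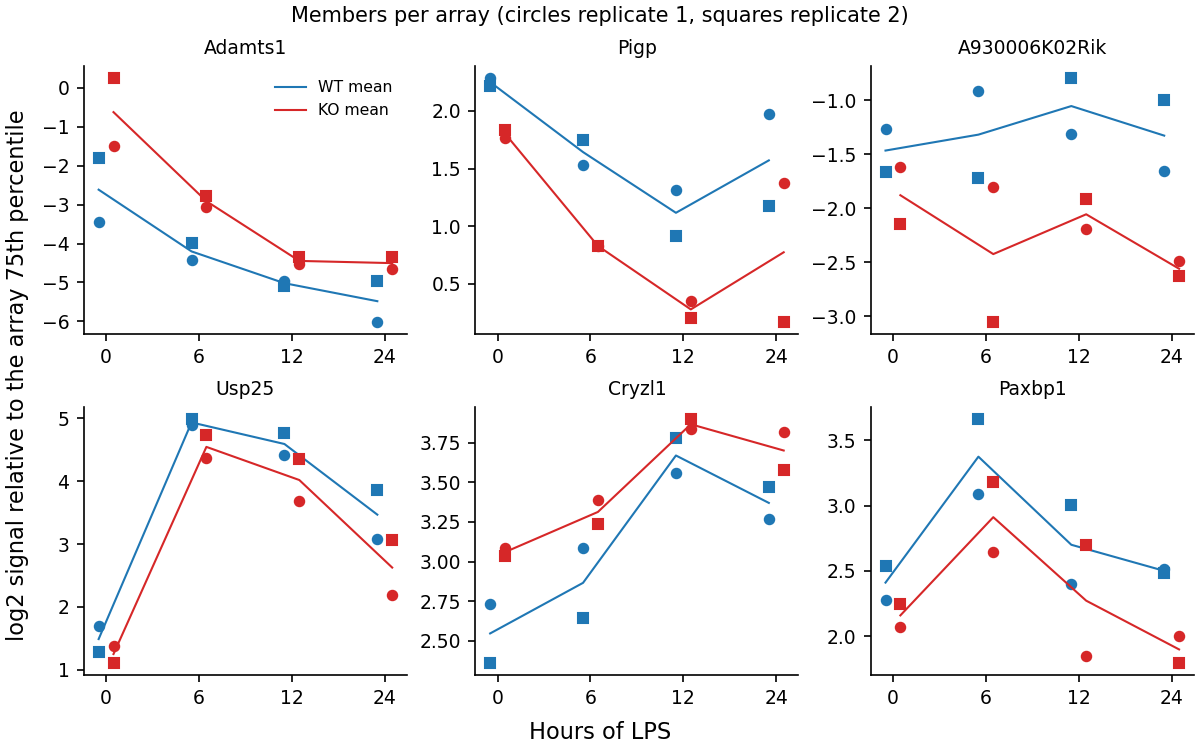
log2 signal relative to the array's 75th percentile (y axis) per array against hours of LPS (x axis). The members shown were chosen from those with an unadjusted p under 0.05 for genotype (limma). WT and KO are in separate colours, with circles for replicate 1, squares for replicate 2 and lines through group means. KO arrays of Adamts1 lie above WT at every time, those of Pigp and Usp25 lie lower in every same-numbered pair, and none passed the adjusted threshold.

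Eva1c, which encodes a transmembrane protein with lectin-like domains, was the member whose genotype difference depended on the probe. Its brightest probe, the one that stands for the gene by the rule, was well above background on all 16 arrays and had a difference of 0.02 ± 0.40. The other probes lie further along the chromosome and gave 2.27 ± 0.30 and 3.005 ± 0.33. The array annotation pairs these dimmer probes with the gene's RefSeq transcript. It gives the brightest probe no RefSeq transcript, but among its records is a transcript that the dimmer probes also carry. Eva1c was singled out after its values were seen.

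The first 30 of the 60 bases of each Eva1c probe are printed because the result turns on which of them is read. All lie on the plus strand of chromosome 16 (mm9): the brightest at chr16:90828125-90828184, the second at chr16:90904566-90904625 and the third at chr16:90904816-90904875. Whether they lie in an exon, intron or untranslated region was not analysed here, since no annotation of that build was used.
A_52_P509853: tggctactcccagtaatgaatcctggtgtg
A_52_P6070: gttgtccaggttttgtaggacttcatatcc
A_51_P166648: ccttctgtgaaggagaatctgtcttgtcat

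For A_51_P166648, WT levels were -7.42 and -7.88 at 0 h, -6.02 and -8.24 at 6 h, -7.58 and -7.82 at 12 h, and -6.01 and -6.31 at 24 h. None of the 8 WT arrays was well above background. KO levels were -3.99 and -3.69 at 0 h, -6.96 and -5.46 at 6 h, -4.49 and -4.36 at 12 h, and -2.46 and -1.84 at 24 h, and 7 of 8 KO arrays were well above background. KO and WT arrays did not overlap at 0, 12 and 24 h and overlapped at 6 h. Fitted over all 26865 detected probes, the averaged difference passed the threshold (limma, adjusted p = 0.0197, and 0.0228 with the replicate block). The probe met the detection rule through KO groups only, so that its difference is partly set by that rule. Since WT was not well above background, the fold is a bound: KO was at least 9.59-fold higher at 0 h, 5.62-fold at 12 h and 16.1-fold at 24 h. The same reckoning gave 5.72-fold over the 4 times and 1.23-fold at 6 h. Those 2 values include a KO array not well above background and are no strict bounds. The bound sets the KO mean against the lowest signal well above background on each WT array, or the probe's own signal where that is higher.

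A_52_P6070 followed the same order with less signal. WT levels were -8.34 and -8.46, -7.45 and -8.05, -8.07 and -6.81, and -8.07 and -7.52 at 0, 6, 12 and 24 h, none well above background. KO levels were -6.45 and -5.40, -7.75 and -6.25, -5.95 and -5.51, and -4.11 and -3.21, with 3 arrays well above background. The averaged difference had an adjusted p of 0.0828 (limma), and 0.0120 with the block. KO was at least 7.64-fold higher at 24 h, the only time at which both KO arrays were well above background. This probe met the detection rule through that KO group only, so that its difference too is partly set by the rule. The 2.36-fold over the 4 times averages in KO arrays that were not, and is no bound. Re-corrected by normexp with a capped local background, the averaged difference was 0.40. Of 162 detected probes of members, 1 passed the threshold, against 0.0149% of all 26865 probes, and 2 with the block, against 0.0223%. At an unadjusted p under 0.05 there were 12 member probes (7.41%, against 1.23% of all probes), and 21 with the block (13%, against 5.19%).

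The call for A_51_P166648 was lost with the slide as a term (2.70, adjusted p = 0.176), and with the signal re-corrected by normexp with a capped local background (0.76, adjusted p = 0.999985). Leaving out single arrays gave 2.73 to 3.28 with adjusted p from 0.00517 to 0.109. The call was lost in 12 of these 16 fits and kept only when a 6 h array was left out. Read as the mean of its detected probes, Eva1c was the 1 member called in a fit of genes (1.76 ± 0.17, limma, adjusted p = 0.00545). In that fit 0.0226% of all genes were called. The dimmer probes in this mean met the detection rule through KO groups only, so that this call is partly set by the rule as well.

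**Figure D3:**
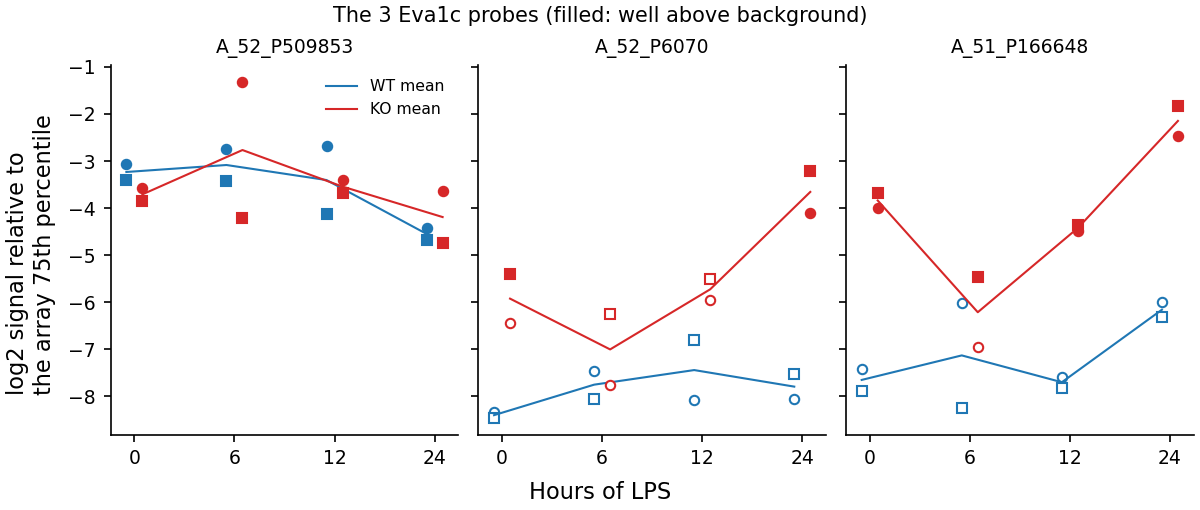
log2 signal relative to the array's 75th percentile (y axis) of the 3 Eva1c probes on each array against hours of LPS (x axis), WT and KO in separate colours, filled symbols for arrays well above background. The brightest probe shows no separation, while KO lies above WT at 0, 12 and 24 h in the other probes and dips at 6 h.

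LPS changed many neighbours of Mir155, in a share near that of all genes. At 6 h Fam3b, Usp25, D16Ertd472e and Samsn1 had the largest rises, and Dnajc28, Get1, Adamts1 and Cfap298 fell. Averaged over both genotypes, 46 of 106 members (43.4%) passed the threshold at 6, 12 or 24 h, 28 of them upward, 18 downward and 0 in both directions, where 49.7% of all genes did. At 6 h 40 members passed, where 40.7% of all genes did: 25 rose (all genes 19.5%) and 15 fell (21.1%). At 12 h 29 passed (all genes 34.4%), 19 upward (16.9%) and 10 downward (17.6%). At 24 h 18 passed (all genes 22.8%), 10 upward (11%) and 8 downward (11.8%). The median member differed from 0 h by 0.38 at 6 h, 0.28 at 12 h and 0.01 at 24 h, against 0.05, 0.03 and -0.03 over all genes.

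With the replicate block the counts were 61 at 6 h, 46 at 12 h and 33 at 24 h, against 59.5%, 53.2% and 41.9% of all genes. Scaled to the median of detected probes, all genes shifted by 0.12, 0.14 and 0.11 at 6, 12 and 24 h, and the split at 24 h was 12 upward and 5 downward. Within WT alone 27 members passed at any time (all genes 30.9%), or 58 with the block (56.9%) and 16 without WT 0 h replicate 2. Within KO alone 29 passed (31.2%), or 54 with the block (55.1%) and 17 and 19 without replicate 2 or replicate 1 of KO at 0 h. Bulk arrays cannot tell a change in RNA per cell from a change in the share of cells that carry it. Markers of other cell types differed after LPS too. Summed endothelial markers were -2.27 to -1.79 at 0 h and -0.44 to 2.64 after LPS, dendritic markers -2.79 to -0.59 and -1.90 to 1.24, stromal markers -0.48 to -0.06 and -0.10 to 1.49, and neutrophil markers 1.76 to 5.63 and -0.53 to 5.46. Of 6 tested stromal markers 4 rose at 6 h, or 6 with the block (all genes 19.5% and 30.1%). Of 6 tested neutrophil markers 0 passed at 24 h (limma), with a median of -2.17. With the block 4 of them were lower (all genes 21.5%). Their part in these results was not tested.

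The strongest rise was that of Fam3b, a secreted cytokine-like protein, at 97.69 Mb. Its WT levels were -6.79 and -6.00 at 0 h, 1.73 and 2.08 at 6 h, 1.59 and 3.09 at 12 h, and 0.83 and 3.02 at 24 h. KO levels were -6.71 and -5.71, 1.73 and 2.10, 1.22 and 2.81, and -0.80 and 2.57. All LPS arrays lay far above all 0 h arrays, of which 2 of 4 were not well above background, so the size of the rise rests on a 0 h level near background. The averaged response was 8.21 ± 0.76 at 6 h (limma, adjusted p = 1.66e-05), 8.48 at 12 h and 7.71 at 24 h.

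Among ubiquitin and protein folding genes, 3 of 10 members rose and 6 fell at 6 h, with a median of -0.75. Over all genes 19.5% rose and 21.1% fell at 6 h. Usp25 rose by 3.37 ± 0.28 at 6 h (adjusted p = 7.32e-06), 2.94 at 12 h and 1.68 at 24 h, from the levels given above. Usp16, which removes ubiquitin from histone H2A, rose by 0.60 ± 0.19 and Cct8, a subunit of the cytosolic chaperonin, by 0.75 ± 0.21 at 6 h. Without single arrays the calls of Usp16 and Cct8 were lost in 6 and 4 of 16 fits, with values down to 0.47 and 0.61, and with quantile normalization they had 0.36 and 0.18.

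The 6 that fell at 6 h included Get1, part of the receptor that inserts tail-anchored proteins into the endoplasmic reticulum. Get1 levels were 1.47 and 1.67 in WT and 1.52 and 1.84 in KO at 0 h, and -1.07, -0.37, -0.97 and -0.40 at 6 h. By 24 h they were 1.34, 1.04, 1.17 and 1.23, close to the start. The response was -2.33 ± 0.22 at 6 h (adjusted p = 1.67e-05), -0.79 at 12 h and -0.43 at 24 h, the last not passing the threshold.

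Dnajc28, a J-domain chaperone partner, had a response of -3.996 ± 0.66 at 6 h and -2.58 at 12 h, both called, and -0.80 at 24 h; read as the mean of its probes, the call at 12 h was lost (-2.12). Its 0 h levels of -0.05, -1.91, 0.03 and -1.64 differed between scan sessions, the first being higher in both genotypes. At 6 h the levels were -3.79 and -5.62 in WT and -5.17 and -4.98 in KO. Ttc3 had -2.03 at 6 h, Vps26c, a subunit of the retriever recycling complex, -1.19, Psmg1, a proteasome assembly chaperone, -0.87 and Ltn1, the ribosome quality control ligase, -0.63. The Ltn1 call was lost in 13 of 16 fits without an array (-0.65 to -0.45) and that of Psmg1 in 1 (-0.72, without WT 0 h replicate 2). At 24 h Usp25 was higher and none of the 10 was lower at the threshold (all genes 11% and 11.8%). With the replicate block 3 were higher and 1 lower (all genes 20.4% and 21.5%).

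Of 13 measured transcription and chromatin factors, 2 rose and 2 fell at 6 h (all genes 19.5% and 21.1%). Morc3, a nuclear ATPase, rose by 1.95 ± 0.32 and Ets2, an ETS-family factor downstream of M-CSF and LPS signals, by 1.73 ± 0.50. The Ets2 call was lost in 3 of 16 fits without an array (1.38 to 1.61: KO 0 h replicate 1, WT 0 h replicate 1 and WT 6 h replicate 1). Brwd1, a bromodomain protein, had levels of -0.61, -0.50, -0.61 and -0.54 at 0 h and of -2.27, -2.07, -2.13 and -1.96 at 6 h. At 12 h they were back at -0.72, -0.54, -0.62 and -0.55. The response of this probe was -1.54 ± 0.19 at 6 h (adjusted p = 0.000102) and -0.04 at 12 h. Another Brwd1 probe, also detected in all 8 groups, had a different time course: in the limma fit of single probes it had -0.53 at 6 h, not called, and -1.26 at 12 h (adjusted p = 0.00236).

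Mis18a, which prepares centromeres for their histone variant, fell for longer. Its levels were 1.19 and 1.59 in WT and 1.07 and 1.59 in KO at 0 h, and -0.98, -0.04, -0.66 and -0.09 at 6 h. The response was -1.81 ± 0.31 at 6 h, -1.96 at 12 h and -1.30 at 24 h, all called. Scaf4, which binds the tail of RNA polymerase II, rose by 0.81 ± 0.16 at 12 h, but the mean of its probes gave -0.0980. Gabpa had -0.70 at 12 h and -0.65 at 24 h by its brightest probe, both called, but its other probes gave 0.76 and 1.21 at 6 h, called upward, where the brightest gave -0.11. The calls of the brightest were lost in 5 (12 h) and 12 (24 h) of 16 fits without an array, with values between -0.71 and -0.53.

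Of 9 measured signalling genes, 3 rose and 1 fell at 6 h (all genes 19.5% and 21.1%). With the replicate block 5 rose and 1 fell (all genes 30.1% and 29.4%). Samsn1, an adaptor with SH3 and SAM domains that is expressed in blood cells, had levels of 0.20 and 0.55 in WT and 0.07 and 0.58 in KO at 0 h. At 6 h they were 3.11, 3.63, 2.53 and 4.02, and at 24 h 2.13, 3.73, 2.22 and 3.73. Its response was 2.97 ± 0.56 at 6 h (adjusted p = 0.00173), 2.96 at 12 h and 2.60 at 24 h. After LPS the second scan session gave the higher value in each group.

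Btg3 rose by 1.20 ± 0.17, 1.63 and 1.30 at 6, 12 and 24 h. Pcp4, a small calmodulin-binding protein, rose by 2.60 ± 0.70 at 6 h and 2.71 at 12 h. Its fitted responses were 3.70 and 3.72 in WT and 1.503 and 1.70 in KO, but the difference of -2.20 ± 1.40 at 6 h did not pass (adjusted p = 0.999982). Both Pcp4 calls were lost without replicate 2 of KO at 0 h (2.12 and 2.23, adjusted p = 0.0519 and 0.0504). C2cd2 had -0.80 ± 0.19 at 6 h (-0.72 and not called as the mean of its probes), and Tiam1, which activates the GTPase Rac, had -1.64 ± 0.34 at 24 h.

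Of 9 measured receptors, adhesion molecules and channels, 4 rose and 0 fell at 6 h (all genes 19.5% and 21.1%). With the replicate block 4 rose and 2 fell (all genes 30.1% and 29.4%). Ifngr2, the second chain of the interferon gamma receptor, had levels of 4.18 and 3.84 in WT and 4.43 and 4.10 in KO at 0 h. At 12 h they were 5.43, 5.97, 5.63 and 5.86. It rose by 1.30 ± 0.19 at 6 h, 1.59 at 12 h and 1.15 at 24 h (adjusted p = 0.000392, 0.000151 and 0.00184).

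Jam2 had levels of -5.00 and -4.81 in WT and -5.38 and -5.25 in KO at 0 h, and of -2.08, -3.04, -2.54 and -3.12 at 6 h. It rose by 2.41 ± 0.34 at 6 h and 1.88 at 12 h, and its 0.97 at 24 h did not pass. App rose by 0.89 ± 0.18 and Tmem50b, a membrane protein of the secretory pathway, by 1.39 ± 0.25 at 6 h. The App call was lost with quantile normalization (0.29) and as the mean of its probes (0.81). At 24 h Ifngr2 alone of the list passed without the block (all genes 22.8%). With the block 3 of the list were higher and 1 lower (all genes 20.4% and 21.5%).

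Of 4 measured secreted proteins and membrane proteases, Fam3b rose and Adamts1 fell at each time. Among all genes 19.5% rose and 21.1% fell at 6 h, 16.9% and 17.6% at 12 h, and 11% and 11.8% at 24 h. Adamts1 had -1.94 ± 0.44, -3.11 and -3.37 at 6, 12 and 24 h. Its response was -2.40 in WT and -3.82 in KO at 12 h, and the difference of -1.42 ± 0.88 did not pass.

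Of 12 measured genes of metabolism, mitochondria and replication, 0 rose and 3 fell at 6 h (all genes 19.5% and 21.1%). With the replicate block 1 rose and 5 fell (all genes 30.1% and 29.4%). Hlcs, which attaches biotin to carboxylases, had -1.34 ± 0.28, B3galt5, a galactosyltransferase, was lower after LPS, and Pigp had -0.79 ± 0.27. B3galt5 was well above background on the 4 unstimulated arrays only and became a member through them, so that its fall is partly set by the detection rule. By the bound it was at least 3.38-fold lower at 6 h, 3.60-fold at 12 h and 4.42-fold at 24 h, but with the capped normexp its 6 h response was 0.0826. Its 0 h levels were -3.88 and -6.28 in WT and -3.45 and -6.33 in KO. Cryzl1 rose by 0.96 ± 0.18 and Atp5o, another ATP synthase subunit, by 0.60 ± 0.20 at 12 h. The Pigp call at 6 h was lost in 10 of 16 fits without an array (-0.84 to -0.74) and that of Atp5o in 6 (0.49 to 0.66), and Atp5o had 0.01 with quantile normalization. The Hlcs call was lost with the capped normexp (-0.21).

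Outside these lists, Synj1, a phosphoinositide phosphatase, rose by 1.96 ± 0.35 at 6 h, and D16Ertd472e by 3.21 ± 0.30. Cfap298 had -1.77, -3.02 and -1.15 at 6, 12 and 24 h. The transcript AK082307, near App, was well above background on 7 arrays, none of them at 0 h, and on both arrays of 1 group only, which made it a member, so that its rise is partly set by the detection rule. Its calls at 6 and 12 h were each lost in 6 of the 16 fits that left out an array (1.91 to 3.16 and 2.46 to 3.45). The Cfap298 call at 24 h was lost in 6 of them (-1.26 to -0.83).

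**Figure D4:**
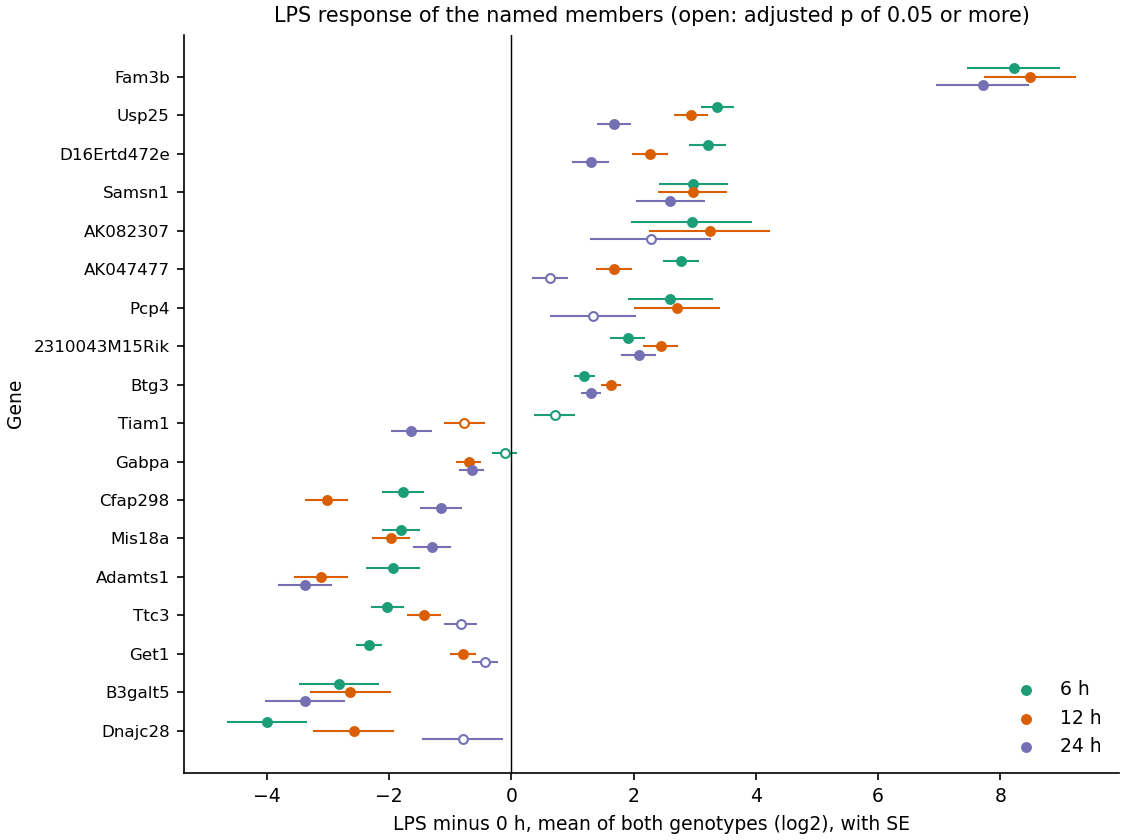
LPS minus 0 h averaged over both genotypes (log2, x axis, bars are standard errors) for the members with the largest non-overlapping rises and falls (y axis). There is 1 colour per time, with open symbols where the adjusted p was 0.05 or more. Fam3b stands apart at 7.71 to 8.48, and Adamts1 lies lower at each later time.

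The LPS response did not differ between genotypes at the threshold. In the joint F test of the 3 time points, 0 of 106 members passed (limma), where 0% of all genes did. At an unadjusted p under 0.05 there was 1 member, the transcript 4930404I05Rik, against 78 of all genes. With the block, 0 members passed, where 0.0113% of all genes did. An unadjusted p under 0.05 was then found for 3 members, and the share over all genes is not given here. Usp25 rose by 3.45, 3.10 and 1.98 in WT and by 3.30, 2.77 and 1.38 in KO, and the difference at 24 h was -0.60 ± 0.55.

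By position, called LPS responses lay on both sides of Mir155. At 74.7 to 79.7 Mb 6 of 14 members rose at 6 h and 0 fell, with a median of 0.90. Over all genes 19.5% rose and 21.1% fell at 6 h. At 84.7 to 89.7 Mb 6 of 25 rose and 2 fell, at 89.7 to 94.7 Mb 8 of 43 rose and 7 fell, and at 94.7 to 99.7 Mb 5 of 20 rose and 6 fell. The single member at 79.7 to 84.7 Mb and the 3 at 69.7 to 74.7 Mb did not pass. The lower side held Samsn1, Usp25, AK047477, Btg3, D16Ertd472e and Mir99ahg, the last lost in 4 of 16 fits without an array (0.92 to 0.98).

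**Figure D5:**
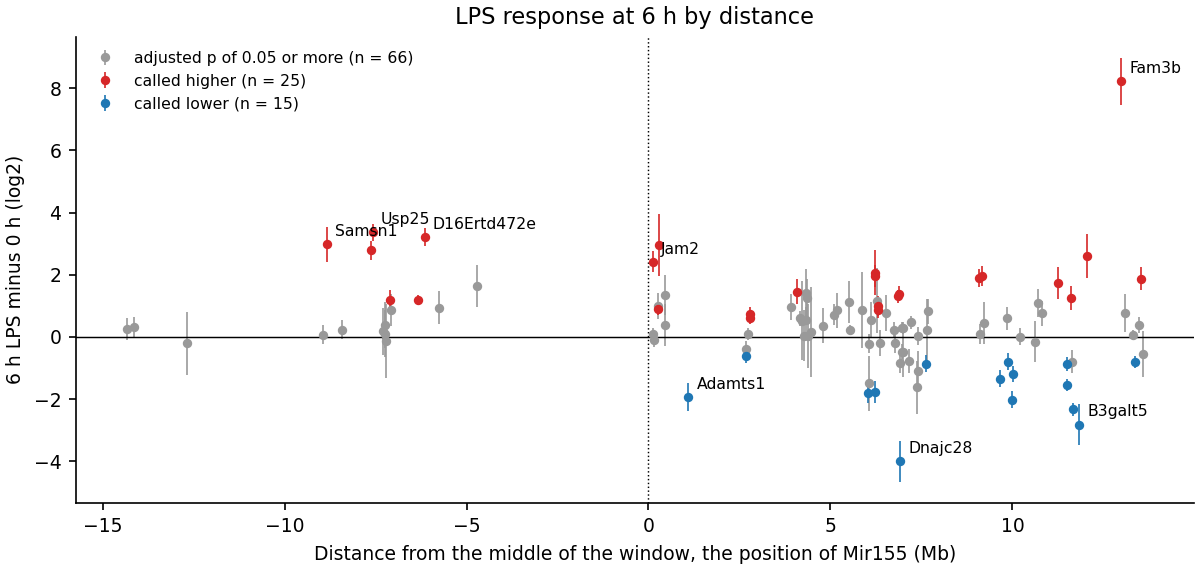
LPS at 6 h minus 0 h averaged over both genotypes (log2, y axis, bars are standard errors) for the 106 members against distance from the middle of the window in Mb (x axis). The 25 called higher are on both sides. The 15 called lower all lie on the side of higher coordinates, which holds most members. Its stretches of 5 Mb have 25, 43 and 20 members, and those of the lower side 3, 14 and 1.

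Promoters of members that rose together were searched for 3 letter patterns in the RefSeq promoter table (GRCm38.p6), from 250 bases before to 50 after each start, on both strands. The patterns were the interferon-stimulated response element (GAAA, any 2 bases, GAAA), the AP-1 site TGANTCA and the NF-kB consensus. Of 28 members raised by LPS, 21 had a promoter in the table. The NF-kB consensus was in 3 of 21 (14.3%, exact 95% interval 3.05 to 36.3), namely Btg3, Paxbp1 and Ifngr2, against 9.55% of the 27025 genes of the table. AP-1 letters were in 1 of 21 (4.76%, 0.12 to 23.8), against 8.97%, and the interferon element in 0 of 21, which allows a share of up to 16.1%, against 3.99%. Among 18 lowered members with a promoter, the NF-kB consensus was in 1, Pigp. The intervals include the share of all genes for each pattern.

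The 250 bases before the start are printed for 2 members that rose and hold the NF-kB consensus, in capitals, and for Usp25, which holds none of the 3 patterns. Ifngr2 is at chr16:91546809-91547058 and Usp25 at chr16:77013819-77014068, both on the plus strand, and Btg3 at chr16:78376811-78377060 on the minus strand (GRCm38.p6).
Ifngr2: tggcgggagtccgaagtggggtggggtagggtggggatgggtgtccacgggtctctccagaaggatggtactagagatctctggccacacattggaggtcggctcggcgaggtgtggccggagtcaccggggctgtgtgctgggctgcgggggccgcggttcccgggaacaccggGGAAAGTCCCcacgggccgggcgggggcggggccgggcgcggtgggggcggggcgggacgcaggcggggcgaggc
Btg3: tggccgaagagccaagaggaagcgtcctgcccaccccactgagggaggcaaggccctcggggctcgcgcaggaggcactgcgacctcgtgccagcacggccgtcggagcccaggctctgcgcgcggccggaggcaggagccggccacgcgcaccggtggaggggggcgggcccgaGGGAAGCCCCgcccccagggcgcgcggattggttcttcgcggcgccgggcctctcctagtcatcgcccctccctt
Usp25: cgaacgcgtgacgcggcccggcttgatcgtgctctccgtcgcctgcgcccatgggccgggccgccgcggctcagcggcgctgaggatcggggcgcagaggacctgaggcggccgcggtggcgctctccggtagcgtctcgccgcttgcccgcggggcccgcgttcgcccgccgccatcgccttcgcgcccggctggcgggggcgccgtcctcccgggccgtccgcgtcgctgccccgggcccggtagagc

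The match lies at bases -75 to -66 from the start in both Ifngr2 and Btg3, and in Btg3 it reads as a match on both strands. A match is a description of letters and no match says only that these letters are not in the window.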

How the data were processed

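Each array was scanned and quantified with Agilent Feature Extraction, per the file headers; the deposited values are spot intensities, background-subtracted and detrended within the array. Spots of a probe were averaged, control and outlier spots left out, and log2 intensity was taken minus the array's 75th percentile. The authors' deposited series table holds log2 values that equal the log2 intensity plus 1 constant per array (column medians 4.24 to 5.24); the origin of that constant is not given in the sources used here. limma 3.58.1 in R 4.3.3 fitted 8 group means over all 16 arrays (8 residual degrees of freedom), with Benjamini-Hochberg adjustment over 17666 genes; the script was tested on simulated data. Replicate numbers coincide with the scan session, per the file headers, and deviations of same-numbered arrays correlated in all 28 pairs of groups (0.400 to 0.839), so the replicate block pairs samples. Other scalings, background corrections, filters, probe rules, the slide and leaving out each array were tried. Members and gene lists were chosen with earlier results of these data known. Named were called members, the 5 nearest on each side of the middle, the largest non-overlapping LPS changes, up to 4 called members of a list each way, and Usp25, Adamts1 and Pigp; other genes named were chosen after their values were seen. The number of arrays limits the precision.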

Additional observations from a re-analysis of the deposited data

How the results depend on the processing

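For KO against WT averaged over the 4 times, 0 members were called in each alternative fit of genes except 1 fit. The mean of a gene's detected probes called 1 member, Eva1c, and 0.0226% of all genes. At single times and in the joint F test, 0 were called in each alternative. The LPS counts at 6, 12 and 24 h were 40, 29 and 18 (all genes 40.7%, 34.4% and 22.8%). With the replicate block they were 61, 46 and 33 (all genes 59.5%, 53.2% and 41.9%). The slide as a term gave 64, 56 and 36 (all genes 62.4%, 55.7% and 39.1%). Normexp as planned gave 8, 7 and 1 (all genes 9.88%, 8.16% and 2.78%). Leaving out single arrays gave 32 to 43, 24 to 31 and 12 to 18. Within WT, the 27 members became 58 with the block, 58 with the slide, 2 with normexp and 16 to 30 without single arrays (16 without WT 0 h replicate 2). Within KO, the 29 became 54, 56, 1 and 17 to 28 (17 without KO 0 h replicate 2, 19 without KO 0 h replicate 1). The planned normexp took local backgrounds of up to 722571 on a few spots, where array medians were 18 to 21. Capped at the 99th percentile, a setting added after seeing the data, it called 36, 29 and 13 (all genes 34.7%, 28.2% and 19.4%). B3galt5 turned to 0.0536, 1.25 and 0.0311 at 6, 12 and 24 h with normexp, and to 0.0826 at 6 h with the cap; its LPS arrays are not well above background. At 12 h normexp also turned Scaf4 (-0.179), App (-0.804), Atp5o (-0.896) and Cryzl1 (-0.430), and the mean of its probes turned Scaf4 (-0.0980). With 1 mismatch allowed, 23.8%, 61.9% and 66.7% of promoters of raised members held the interferon, NF-kB and AP-1 letters, against 38.9%, 65.6% and 72.4% over all genes of the table. Where 1 array stands for a group, limma assumes that it varies like the others.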

Other observations

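Synj1 and Cfap298 lie next to each other at 90.94 and 90.93 Mb and moved in opposite directions after LPS: at 12 h the response was 1.64 ± 0.35 for Synj1 and -3.02 ± 0.35 for Cfap298. By their brightest probes, Hlcs, Vps26c and Brwd1 were lower at 6 h (-1.34, -1.19 and -1.54) and had 0.50, -0.21 and -0.04 at 12 h, none of which passed the threshold. The pair was chosen after the values were seen, and no difference between neighbouring genes was tested.

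A930006K02Rik was the 1 member whose promoter held the letters of the interferon-stimulated response element; among all 69 members with a promoter this is 1.45%, against 3.99% of the genes in the table.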
